A study of Mus musculus with 4 samples.

Results

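The 9 genes described here encode intermediate filament proteins of neurons, astrocytes and neural stem cells, among 19937 genes with a probe set of their own on the array. The neuronal group holds Nefl, Nefm, Nefh, Ina and Prph, and the glial and stem cell group holds Gfap, Vim, Nes and Synm. The genes were named as a family with earlier results of these data known. Where a gene had several probe sets, the one used was chosen by its mean log2 value over the 4 arrays, the highest being taken, and the difference between treatments played no part in that choice.

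RNA came from primary neurospheres grown from the walls of the lateral ventricle, the subventricular zone, of C57BL/6 mice aged 9 to 12 weeks. Cells of 2 arrays were given 100 nM olaparib in 0.01% DMSO, and cells of the other 2 arrays were given 0.01% DMSO alone. Olaparib inhibits the enzymes PARP1 and PARP2, which attach ADP-ribose chains at sites of DNA damage. Cells of both treatments had first been transfected with non-targeting siRNAs and then transduced with viral particles for Pax6, a neurogenic transcription factor. After virus exposure for 5 h the cells were cultured for 36 h, and differentiation was then started by withdrawing growth factors and plating on laminin 10 h before RNA isolation, with the drug or solvent present throughout. The labels' protocols mention no sorting of transduced cells and no group without Pax6, so the arrays measured whole cultures. Arrays with the same treatment are labelled as biological replicates, with no mention of separate animals, so p-values measure the spread between these samples only. For each gene the limma fit takes that spread mostly from all genes tested. The shared estimate is worth 18.1 degrees of freedom, while a gene has 2 arrays per group.

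Intermediate filaments are rope-like polymers built from coiled-coil dimers with a conserved rod domain, and cell types differ in which subunits they make. Stem and progenitor cells of the brain use vimentin (Vim) and nestin (Nes), astrocytes add glial fibrillary acidic protein (Gfap), and young neurons make alpha-internexin (Ina) before the neurofilament light, medium and heavy chains (Nefl, Nefm and Nefh) accumulate in growing axons. In the adult subventricular zone the stem cells themselves have astrocyte features and express Gfap.

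With olaparib, Gfap and Ina fell and Nefm rose, and the other 6 genes did not pass the test. Gfap was 2.05-fold lower and Ina 1.45-fold lower on the probe set used, and Nefm was 1.61-fold higher over a DMSO level close to background, so that the size of this fold is uncertain. Over all 13956 genes tested, 2.84% were called higher and 3.37% lower at an adjusted p under 0.05 in limma, against 1 and 2 of the 9 genes here. The median change of the 9 genes was 0.08 on the log2 scale, beside 0.0013 over all genes tested, and their median absolute change was 0.20, beside 0.08 over all genes tested.

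The regions around the annotated starts of Gfap and Ina are shown because these are the 2 members that were called lower together. RefSeq promoter entries (GRCm38.p6, 250 bases before the start to 50 after it) matched 6 of the 9 genes, namely Ina, Prph, Gfap, Vim, Nes and Synm. The Gfap region is chr11:102897151-102897450 on the minus strand and the Ina region is chr19:47014431-47014730 on the plus strand, both written 5′ to 3′ on the strand of the gene. Capitals mark matches to the TATA box TATAAA, the CCAAT box, the E-box CANNTG, the STAT motif TTCNNNGAA or the GC box GGGCGG on either strand.
Gfap: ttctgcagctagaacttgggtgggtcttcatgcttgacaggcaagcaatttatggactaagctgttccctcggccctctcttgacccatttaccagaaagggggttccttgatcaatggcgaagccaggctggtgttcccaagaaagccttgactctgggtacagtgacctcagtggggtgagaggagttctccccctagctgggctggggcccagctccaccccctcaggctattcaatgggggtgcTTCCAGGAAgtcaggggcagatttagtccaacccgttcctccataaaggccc
Ina: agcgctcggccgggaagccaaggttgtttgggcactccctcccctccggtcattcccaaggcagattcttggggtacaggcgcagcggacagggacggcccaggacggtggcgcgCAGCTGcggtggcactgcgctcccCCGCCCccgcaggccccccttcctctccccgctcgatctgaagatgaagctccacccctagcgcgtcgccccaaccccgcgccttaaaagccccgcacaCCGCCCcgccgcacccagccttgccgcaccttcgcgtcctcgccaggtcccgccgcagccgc
The Gfap region held 1 match, the STAT motif TTCCAGGAA starting 2 bases before the annotated start, and 8.3% of 32851 RefSeq promoters of this length hold that motif. The Ina region held the E-box CAGCTG 135 bases before the start and 2 GC boxes on the opposite strand, with no overlap between these matches. An E-box occurs in 72.3% and a GC box in 35.7% of those promoters. Neither region held a TATA box (13.6% of promoters) or a CCAAT box (37.4%). The 2 regions shared no motif of this set, and G and C made up 55.7% of the Gfap region and 71.7% of the Ina region. These are matches of letters and say nothing on whether a factor binds.

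**Figure D1:**
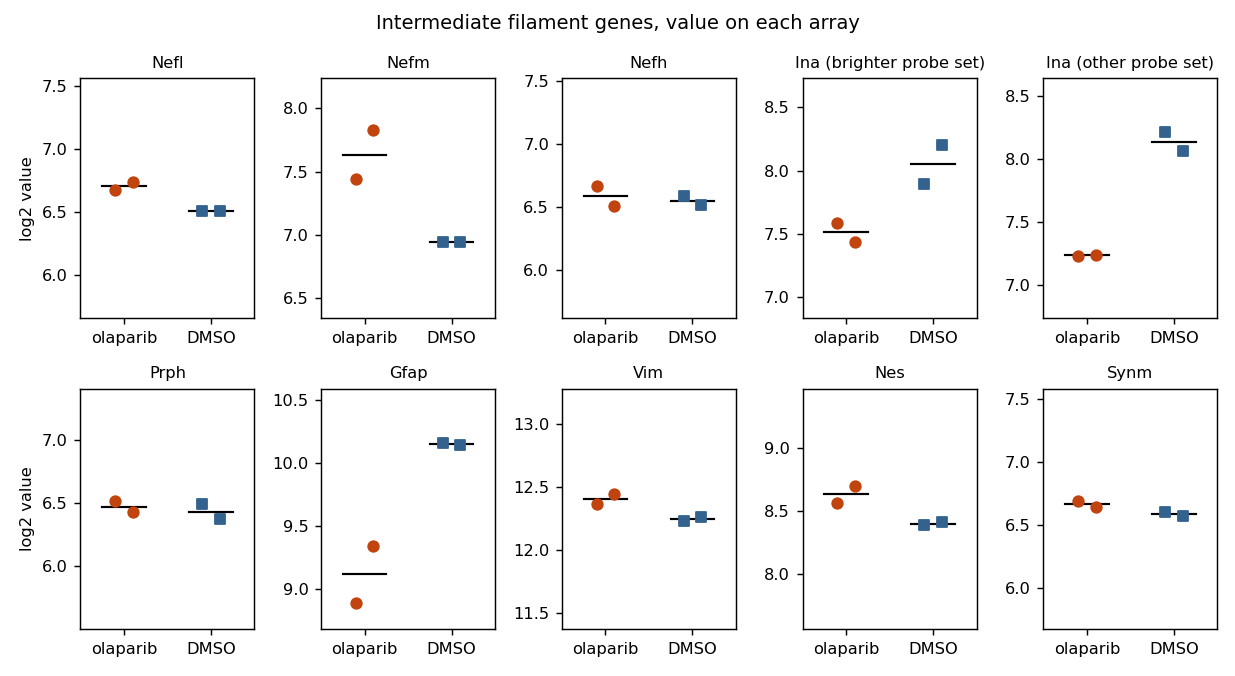
Log2 value of each intermediate filament gene on each array, with olaparib arrays as circles on the left and DMSO arrays as squares on the right, the mean as a line and an equal span on every y axis. Gfap and both probe sets of Ina lie lower with olaparib and Nefm lies higher, while the arrays of Nefh and Prph overlap.

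Among the neuronal filaments, Nefm encodes the medium chain, which co-assembles with the light chain and carries a long tail that projects from the filament. Its log2 values were 7.44 and 7.83 on the olaparib arrays, against 6.94 and 6.94 on the DMSO arrays. Both olaparib arrays lay above both DMSO arrays, and the olaparib arrays were 0.39 apart while the DMSO arrays agreed to within 0.00017. Nefm rose by 0.69 (SE 0.10, 95% interval 0.48 to 0.90; limma adjusted p = 0.00019). This SE draws mostly on the spread shared over all genes. The olaparib pair of Nefm had an SD of 0.28, beside a median of 0.0767 over all genes tested. The DMSO mean of 6.94 lies below 7.09, the highest mean among 24 genes of tissues unrelated to brain, and above their 75th percentile of 6.56. The DMSO level is thus within the range of these genes and close to background, and the size of the rise is less certain.

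Nefl encodes the light chain, on which neurofilaments of the other chains depend for assembly. In the RefSeq gene order no protein-coding gene lies between it and Nefm. It had log2 values of 6.68 and 6.74 with olaparib, against 6.51 and 6.51 with DMSO. The groups did not overlap, but the difference of 0.20 (SE 0.08, 95% interval 0.04 to 0.36) did not pass (limma adjusted p = 0.149; unadjusted p = 0.0185). All 4 values lie within the range of the unrelated-tissue genes. Without olaparib replicate 1 the difference was 0.23 and passed. The spread then comes from the narrower DMSO pair alone, and mostly from that pair over all genes tested.

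Nefh encodes the heavy chain, which enters neurofilaments late as axons mature. The arrays gave 6.67 and 6.51 (log2) with olaparib, against 6.59 and 6.52 with DMSO, so the groups overlapped. The difference was 0.04 (SE 0.08, 95% interval -0.14 to 0.21; limma adjusted p = 0.901). Prph encodes peripherin, a filament protein mostly of peripheral neurons and of central neurons that project to the periphery. Prph stood at log2 values of 6.52 and 6.43 with olaparib, against 6.49 and 6.38 with DMSO, again overlapping, and the difference was 0.04 (SE 0.08, 95% interval -0.13 to 0.21; limma adjusted p = 0.883). Both genes lay at the level of the unrelated tissues, whose 75th percentile was 6.56. The signs of both were negative without olaparib replicate 1 and without DMSO replicate 2. Of 6 markers of peripheral or motor neurons listed for comparison, 4 had a probe set of their own, and 1 of these, Th, lay above the filter on dim genes, at 6.50 with olaparib and 6.49 with DMSO.

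Ina encodes alpha-internexin, which neuroblasts and immature neurons make early, and it was measured by 2 probe sets. On the brighter one, which the rule selected, its log2 values were 7.59 and 7.43 with olaparib, against 7.89 and 8.21 with DMSO. The groups did not overlap, with a gap of 0.31 between the lowest DMSO and the highest olaparib array. Ina fell by 0.54 (SE 0.10, 95% interval -0.75 to -0.33; limma adjusted p = 0.00231). The call was lost without DMSO replicate 2, where the change was -0.39 (adjusted p = 0.0909).

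The other probe set of Ina had nearly the same mean over the 4 arrays, 7.69 against 7.78 for the brighter one. The platform annotation ties it to 4 sequence records, among them the RefSeq transcript, and ties the brighter one to 1 cDNA record only. On this other probe set the log2 values were 7.24 and 7.24 with olaparib, against 8.22 and 8.06 with DMSO. The olaparib arrays were nearly equal and both lay far below the DMSO arrays. With the second brightest probe set taken for each gene that has several, a setting added after seeing the data, Ina fell by 0.90, or 1.87-fold (SE 0.09; limma adjusted p = 1.32e-05). With each array left out in turn, the change on this probe set ran from -0.98 to -0.82. The spread in those fits comes from the complete pair alone and is shared across genes, so no call is drawn from them.

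The 2 probe sets of Ina had the same direction and differed in size by 0.36 between their log2 changes. A joint fit took all 21704 probe sets that exceed the same level, also those that the annotation does not tie to 1 gene. There the shared estimate of the spread is worth 5.25 degrees of freedom instead of 18.1. The other probe set of Ina was the 1 of the 10 probe sets of these genes that passed (limma adjusted p = 0.0448). In that fit 13 probe sets (0.0599%) were called lower and 1 (0.00461%) higher. Adjusted p was 0.142 for the brighter probe set of Ina, 0.0658 for Gfap and 0.0892 for Nefm.

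**Figure D2:**
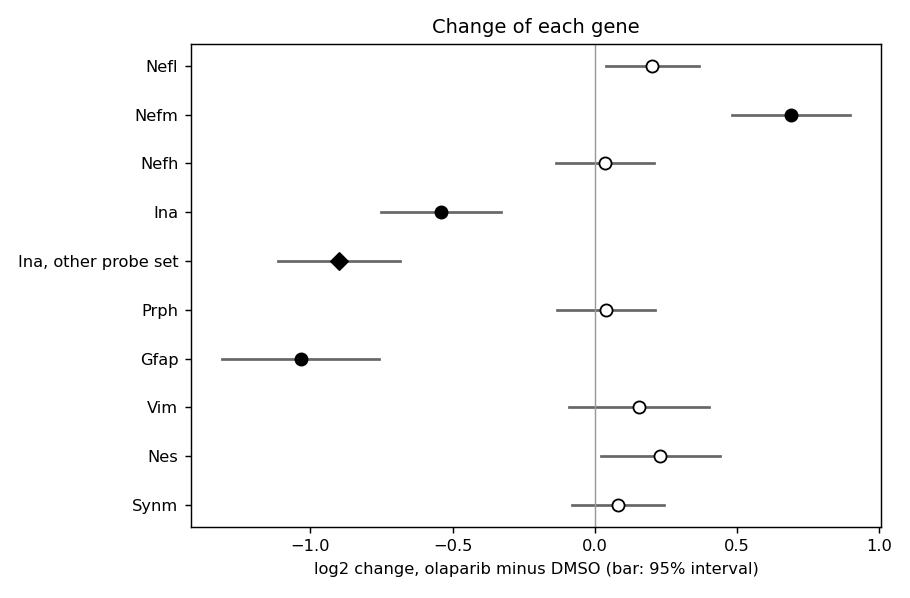
Log2 change (olaparib minus DMSO, x axis) of each gene with its 95% interval, where filled symbols passed an adjusted p under 0.05. The diamond is the other probe set of Ina, whose interval and call come from the fit over all probe sets. Gfap, both Ina probe sets and Nefm have intervals far from 0, and the intervals of Nefh, Prph, Vim and Synm include 0.

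Among the glial and stem cell filaments, Gfap is the classic filament protein of astrocytes. Its log2 values were 8.89 and 9.35 on the olaparib arrays, against 10.16 and 10.15 on the DMSO arrays. The groups were 0.80 apart at their nearest arrays, and the olaparib arrays differed from each other by 0.45 while the DMSO arrays differed by 0.01. Gfap fell by 1.03 (SE 0.13, 95% interval -1.31 to -0.76; limma adjusted p = 6.12e-05), the 7th largest fall among 13956 genes. With each array left out in turn the change lay between -1.26 and -0.81. The spread in those fits comes almost wholly from the complete pair over all genes tested, so no call is drawn from them. The olaparib pair of Gfap had an SD of 0.32, beside a median of 0.0767 over all genes tested. The SE above draws mostly on the spread shared over all genes.

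Vim encodes vimentin, which is shared by stem cells, progenitors and immature astrocytes and forms mixed filaments with both GFAP and nestin. Its log2 values were 12.36 and 12.44 with olaparib, against 12.23 and 12.26 with DMSO. The groups did not overlap, but the difference of 0.16 (SE 0.12, 95% interval -0.09 to 0.40) did not pass (limma adjusted p = 0.549). Under quantile and cyclic loess normalization its difference was 0.06 and 0.04. The interval for Vim leaves out a fall of the size seen for Gfap.

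Nes encodes nestin, a filament protein with a long tail that marks neural stem and progenitor cells. Nes had log2 values of 8.56 and 8.70 with olaparib, against 8.38 and 8.41 with DMSO. Both olaparib arrays lay above both DMSO arrays, and the difference of 0.23 (SE 0.10, 95% interval 0.02 to 0.44) did not pass (limma adjusted p = 0.205; unadjusted p = 0.0323). Without olaparib replicate 1 it was 0.30 and passed, again on the spread of the DMSO pair alone, taken mostly over all genes tested. Synm encodes synemin, which binds vimentin, desmin and GFAP filaments to their attachment sites. The log2 values of Synm were 6.69 and 6.65 with olaparib, against 6.60 and 6.57 with DMSO, near background, with a difference of 0.08 (SE 0.08, 95% interval -0.08 to 0.24; limma adjusted p = 0.672).

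Among the 9 genes, the olaparib arrays lay above the DMSO arrays in 5 and below them in 2. Over all genes tested 23.2% lay above and 23.9% below in this way. In the neuronal group Nefm rose while Ina fell, and in the glial and stem cell group Gfap fell while Vim and Nes had small positive differences that did not pass. No test of these differences between genes was run.

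**Figure D3:**
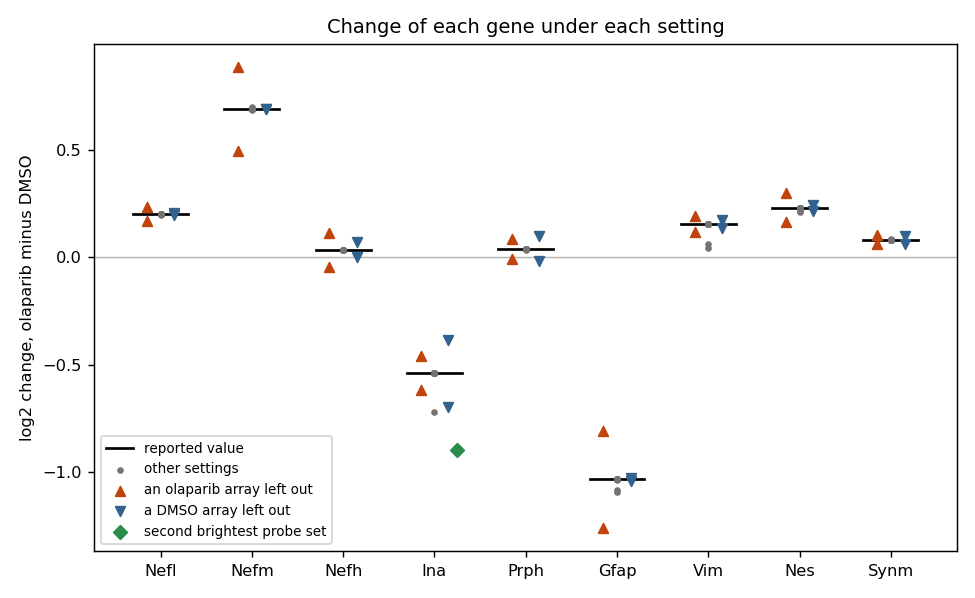
Log2 change (olaparib minus DMSO, y axis) of each gene as reported (line) and under each other setting, with triangles for the settings that leave out 1 array and a diamond for the other probe set of Ina. Nefm stays between 0.49 and 0.89 and Gfap between -1.26 and -0.81, while the values of Nefh and Prph lie on both sides of 0.

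Filament networks depend on other proteins, which were followed as 6 further lists of 90 genes, 69 of them tested. Of these 2 rose and 7 fell (2.9% and 10.1%, beside 2.84% and 3.37% of all genes tested), with a median change of -0.07. Among the other intermediate filaments, 9 of 17 were tested, of which 1 rose, 1 fell and 7 did not pass, at a median change of 0.01. Lmna, which encodes the nuclear lamins A and C, rose by 0.39 (SE 0.09, limma adjusted p = 0.012), at 7.45 and 7.63 with olaparib against 7.27 and 7.03 with DMSO. Bfsp2, which encodes phakinin, a filament protein known from the eye lens, fell by 0.52 (SE 0.09, limma adjusted p = 0.00124), at 7.51 and 7.70 with olaparib against 8.14 and 8.11 with DMSO. The B-type lamin genes Lmnb1 and Lmnb2 differed by -0.10 and 0.12 (adjusted p = 0.668 and 0.562). Sync, which encodes syncoilin, differed by 0.20 (adjusted p = 0.217). The muscle gene Des and 7 of the 10 keratin genes lay below the filter on dim genes.

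Plakins are giant linkers that tie intermediate filaments to each other, to microtubules, to actin and to junctions. Of 7 listed, 6 were tested, of which 0 rose, 1 fell and 5 did not pass, at a median change of -0.03. Plec, which encodes plectin, fell by 0.36 (SE 0.08, limma adjusted p = 0.00988), at 7.27 and 7.34 with olaparib against 7.66 and 7.67 with DMSO. Dst, which encodes dystonin, differed by 0.18 (adjusted p = 0.336) and Macf1 by -0.14 (adjusted p = 0.564).

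Phosphorylation of the head and tail domains controls assembly and spacing of the filaments. Of 25 kinase and phosphatase genes listed, 18 were tested, of which 1 rose, 2 fell and 15 did not pass, at a median change of -0.12. Camk2a and Camk2b, which encode subunits of calcium/calmodulin-dependent kinase II, went opposite ways. Camk2a fell by 0.53 (limma adjusted p = 0.0006), at 6.79 and 6.63 with olaparib against 7.34 and 7.14 with DMSO, so its olaparib level was near background. Camk2b rose by 0.42 (limma adjusted p = 0.0227), at 8.76 and 9.04 with olaparib against 8.45 and 8.49 with DMSO. The mitotic kinase gene Plk1 fell by 0.40 (limma adjusted p = 0.00544).

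Turnover and chaperone genes had 8 of 10 tested, with 0 past the threshold, 3 at an unadjusted p under 0.05 and a median of -0.02. Over all genes tested 2660, or 19.1%, had such a p. The smallest p was that of Capn2, a calpain subunit gene, at a difference of 0.27. It passed without olaparib replicate 1 (change 0.42), where the spread comes from the narrower DMSO pair alone, mostly over all genes tested. Transport genes, among them the kinesin and dynein subunits that carry neurofilament proteins along axons, had 10 of 11 tested, with 0 past the threshold, 0 at an unadjusted p under 0.05 and a median of -0.04. The smallest p was that of Nde1, a dynein regulator, at -0.17. It passed without olaparib replicate 2 (change -0.27), with the spread again from the DMSO pair alone, mostly over all genes tested.

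Of 20 transcription regulators of neural filament genes and neural fate, 18 were tested, of which 0 rose, 3 fell and 15 did not pass, at a median change of -0.10. Nfia, a nuclear factor I gene of gliogenesis that activates Gfap, fell by 0.56 (limma adjusted p = 0.00803), at 10.28 and 10.47 with olaparib against 10.94 and 10.93 with DMSO. Id3, an inhibitor of basic helix-loop-helix factors that BMP signalling induces, fell by 0.65 (limma adjusted p = 0.00172), at 9.72 and 9.88 with olaparib against 10.44 and 10.45 with DMSO. The receptor gene Notch1 fell by 0.38 (limma adjusted p = 0.0381).

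The calls of several of these genes ended when 1 DMSO array was left out. The spread then comes from the wider olaparib pair over all genes tested, and a gene's own pair has no weight. The median within-group SD was 0.0767 with olaparib and 0.0483 with DMSO. Calls ended without either DMSO array for Plec, Camk2b, Nfia, Notch1 and Id3. They ended without DMSO replicate 1 for Plk1 and without DMSO replicate 2 for Lmna. Those of Camk2b and Notch1 also ended under median centring (adjusted p = 0.0825 and 0.148), and that of Notch1 without a filter on dim genes (adjusted p = 0.0662). Median centring left the changes of Camk2b and Notch1 nearly the same, at 0.42 and -0.38. Its fit, too, gave a gene's own arrays no weight in the spread. Over all alternatives the adjusted p reached 0.14 for Plec, 0.351 for Camk2b, 0.226 for Nfia, 0.68 for Notch1, 0.0843 for Id3, 0.126 for Plk1 and 0.322 for Lmna. None of these genes, nor Bfsp2 or Camk2a, passed when all probe sets were fitted together.

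**Figure D4:**
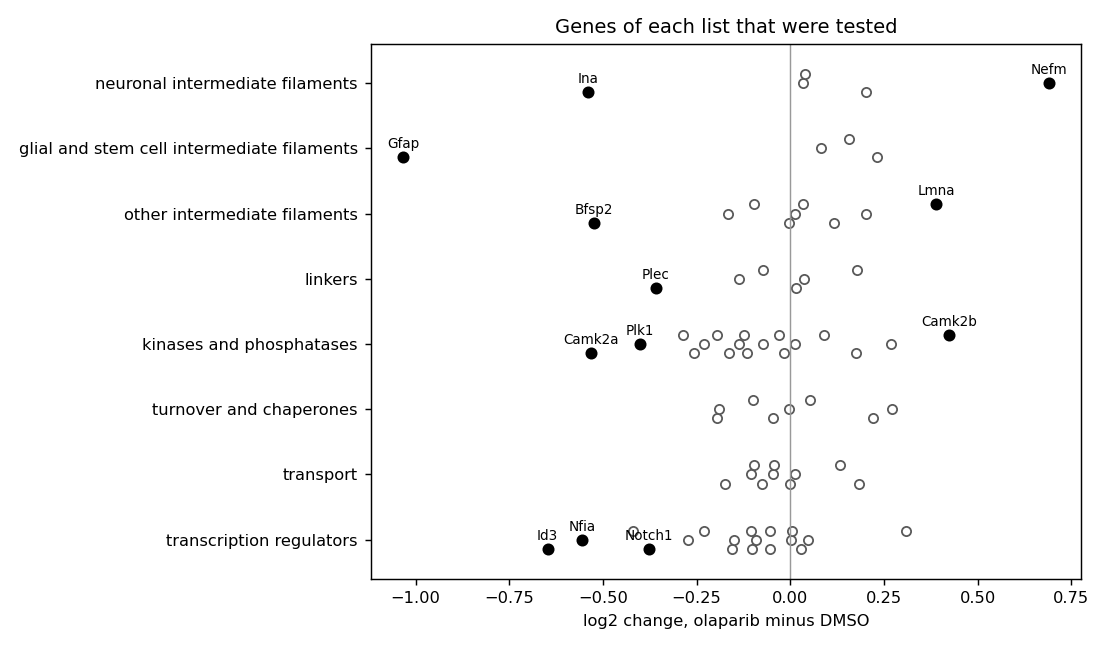
Log2 change (olaparib minus DMSO, x axis) of each gene tested, by list, with filled symbols and names for genes past an adjusted p under 0.05. The called genes of the other lists lie on both sides of 0, with 2 higher and 7 lower.

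Markers of cell types are given beside these results. Over all genes tested 23.2% lay higher and 23.9% lower without overlap, and 19.1% had an unadjusted p under 0.05. Of 9 astrocyte markers tested, 0 rose, 1 fell and 8 did not pass, and their mean log2 level was 10.62 and 10.81 on the olaparib arrays, against 10.89 and 10.89 on the DMSO arrays. The water channel gene Aqp4 fell by 0.71 (limma adjusted p = 0.000703, or 0.07 with all probe sets in the fit), and 3 of the 9 had an unadjusted p under 0.05. Gja1 and Slc1a3 lay lower without overlap, by -0.38 and -0.31 (adjusted p = 0.0623 and 0.148), S100b lay higher without overlap, by 0.17 (adjusted p = 0.377), and Fabp7 and Aldh1l1 differed by -0.03 and -0.01. Of 6 neural stem cell markers tested, 0 passed and 2 had an unadjusted p under 0.05, with means of 8.44 and 8.60 with olaparib, against 8.74 and 8.71 with DMSO. Their differences ran from -0.41 to -0.05, and 3 lay lower and 0 higher without overlap. Ependymal markers had 5 of 6 tested, with 0 past the threshold and 1 at an unadjusted p under 0.05. Among these 5, 1 lay higher and 3 lower without overlap. Of 9 neuron markers, 8 were tested, of which 0 rose, 2 fell and 6 did not pass, and their mean log2 levels were 7.55 and 7.62 with olaparib, against 7.81 and 7.78 with DMSO. Dcx fell by 1.05, and the dendritic microtubule-associated gene Map2 fell by 0.55, a call that ended without either DMSO array (adjusted p up to 0.317). Snap25 and Syt1 lay higher without overlap, by 0.12 and 0.08 (limma adjusted p = 0.529 and 0.641), while 4 of the 8 lay lower in this way. Rbfox3, a marker of mature neurons, lay at 6.55 with olaparib and 6.54 with DMSO, and Stmn2 lay below the filter.

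Most markers of cells outside the neural lineages were near background. All 5 endothelial markers and 3 of 7 microglial markers lay below the filter, and the remaining 4 microglial markers did not pass. Of 7 pericyte and fibroblast markers 4 were tested and 0 passed, with 0 at an unadjusted p under 0.05. Among them Acta2, the smooth muscle actin gene, lay well above background, at a mean of 8.15 with olaparib and 8.10 with DMSO. Among 8 oligodendrocyte lineage markers 1 rose. This was Cspg4, which rose by 0.33, and the call ended without either DMSO array (adjusted p up to 0.186). Mbp also lay higher without overlap, by 0.26 (limma adjusted p = 0.059). Pdgfra and Olig2 lay lower without overlap, by -0.23 and -0.16 (limma adjusted p = 0.0945 and 0.499). The part of any shift in cell types in the changes of Gfap, Ina and Nefm was not tested, and in RNA of whole cultures fewer cells of a type and less RNA per cell cannot be told apart.

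The genes with the most similar pattern were found by the Euclidean distance between log2 values centred on each gene's mean over the 4 arrays. For Nefm these were Bhlhe41 (distance 0.04, change 0.70), Phxr4 (0.07, change 0.65) and Tmem243 (0.08, change 0.66). For Ina they were Ndst4 (0.15, change -0.40), Lrrc4c (0.15, change -0.56) and Lpar4 (0.16, change -0.53). For Gfap they were Ccn1 (0.23, change -0.91), Dcakd (0.24, change -0.80) and Dcx (0.28, change -1.05). The nearest genes of Nefm share its higher value on olaparib replicate 2, with Bhlhe41, for example, at 8.07 and 8.48 with olaparib, against 7.55 and 7.59 with DMSO. With 4 arrays such likeness is a description only. The calls of Ndst4 and Lpar4 ended without DMSO replicate 2 (adjusted p = 0.507 and 0.0748). Of these 9 genes Dcx alone was called in the joint fit of the probe sets, where the adjusted p of the others lay between 0.0523 for Ccn1 and 0.183 for Ndst4.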

How the data were processed

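Total RNA (40 ng per sample) was amplified, biotin-labelled and hybridised to Affymetrix arrays, 1 per sample, per the labels' protocols. The deposited values are log2 values per probe set, made by the authors, and background correction, normalization and summary are not given in the sources used here. The platform annotation gives 1 gene for 21640 of the 34760 probe sets, several for 1321 and none for 11799. Names were updated through RefSeq (19855 of 19937 genes matched). A mean over the 30th percentile (log2 6.42) was required for testing, which kept 13956 genes and all 9 members. Olaparib minus DMSO was fitted with lmFit and eBayes (trend) from limma 3.58.1 (R 4.3.3). Tests were two-sided, p-values were adjusted by Benjamini-Hochberg across all genes tested, and the threshold was 0.05. All adjusted p-values are from limma. The fit was also run on simulated data with the same spread in both groups, unlike the arrays here, and no result is drawn from that run. Array medians were 6.60 and 6.68 with olaparib and 6.63 and 6.65 with DMSO, and 2 arrays per group limit the precision.

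The rule for named genes took all 9 members, the genes of the 6 other lists past the threshold (or the 1 with the smallest p) and the 3 genes most like each member that passed. The members and lists were chosen with earlier results of these data known. Marker genes and list genes that did not pass, given beside them, were picked with their values in view. The alternatives were other filters, normalizations, a floor, variance priors, array weights, probe set rules, an adjusted p of 0.1 and leaving out each array. Replicate numbers only name arrays. Figures used matplotlib 3.10.9 under Python 3.11.15.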

Additional observations from a re-analysis of the deposited data

How the results depend on the processing

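Over the 9 members and their alternatives, 139 of 149 values kept direction and side of the threshold, 4 lost a call (Gfap, Nefm and Ina with all probe sets in the fit, Ina without DMSO replicate 2), 2 gained one (Nefl and Nes without olaparib replicate 1) and 4 changed sign. The sign changes were those of Nefh and Prph without olaparib replicate 1 and without DMSO replicate 2. With each array left out, Nefh ran from -0.04386 to 0.1142 and Prph from -0.01829 to 0.09747, and neither passed the threshold in any setting. Of 390 values of 23 other named genes, 41 lost a call and 2 gained one, with no change of sign. The count of members called was 0 higher and 0 lower with all probe sets in the fit, where the prior was worth 5.25 degrees of freedom instead of 18.1. Leaving out each array gave 1 to 3 members higher and 1 to 2 lower. Over all genes, 397 were higher and 471 lower. The counts were 257 higher without a filter on dim genes, 779 lower under quantile and 732 lower under cyclic loess normalization, 606 and 715 at an adjusted p of 0.1, and 1 and 11 among genes with all probe sets in the fit. Leaving out each array gave 97 to 1274 higher and 161 to 1032 lower, and the lone array of a group is then taken to vary as the other pair does. The cause of these shifts was not tested. The filter at the 50th percentile left 5 members tested and gave no value for Nefl, Nefh, Prph and Synm. No paired analysis was possible because the labels give no replicate numbers that pair arrays across groups. Background could not be measured from these summarised values, so levels near those of unrelated tissues limit Nefl, Nefh, Prph, Synm and the DMSO level of Nefm.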
